A study of Mus musculus with 2 samples.

Results

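The Mir106b cluster (Mir106b, Mir93 and Mir25) and the Mir106a cluster (Mir106a, Mir18b, Mir20b, Mir19b-2, Mir92-2 and Mir363) are paralogs of the Mir17 cluster, and this account covers their 9 miRNA genes among the 1973 of the count tables. Members were chosen by Ensembl identifier, and all 9 were found and had at least 10 counts in both libraries, the minimum for testing. The libraries held RNA shorter than 30 bases from whole facial prominences of B6NCrl mouse embryos at day 13.5, male and female pooled, and the labels name them biological replicates 1 and 2. There is 1 group and no treatment, so the comparisons are between clusters, between genes and between libraries. The labels give 1 donor record for both libraries, and p-values measure only the difference between these 2 samples.

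A miRNA is cut from a hairpin in its primary transcript and guides silencing of messenger RNAs through its seed, here bases 2 to 8 of the mature strand. Members of the 3 paralogous clusters fall into 4 seed families, which repress inhibitors of the cell cycle and promoters of cell death such as Cdkn1a and Bcl2l11. Mouse embryos without the Mir17 and Mir106b clusters together die before birth, and the Mir17 cluster is known to be needed for closure of the palate. The Mir106b cluster is made with the messenger RNA of Mcm7, a subunit of the helicase that opens replication origins. The Mir106a cluster lies on the X chromosome and follows the non-coding gene Kis2.

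The mature sequences show what the members share and where they part. All are from RefSeq (GRCm38.p6), where all 9 members had a match, and run 5′ to 3′ with the seed in capitals. The strand shown is the arm usually taken as the guide. The largest family, that of Mir17, holds 4 members and the Mir17 cluster genes Mir17 and Mir20a.
Mir93: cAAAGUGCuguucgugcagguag
Mir106b: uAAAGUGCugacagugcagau
Mir106a: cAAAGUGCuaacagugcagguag
Mir20b: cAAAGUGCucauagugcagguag
Mir17: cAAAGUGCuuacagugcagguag
Mir20a: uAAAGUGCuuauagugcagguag

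Counting from 1 at the 5′ end, Mir106a differed from Mir17 by the single substitution A10U, an identity of 95.7% over 23 bases. Mir20b differed from Mir20a by C1U and C10U. Mir106b and Mir93, neighbours in an intron, were less alike, with 5 substitutions over the 21 bases of Mir106b, namely U1C, A11U, C12U, A13C and A20G. Apart from Mir106b, which also ends differently, the sequences of this family shown here differ only at base 1 and between bases 10 and 13.

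The family of Mir25 and Mir92 holds 3 members, shown with Mir32 and Mir92b, relatives outside the clusters.
Mir25: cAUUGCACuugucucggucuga
Mir363: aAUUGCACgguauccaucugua
Mir92-2: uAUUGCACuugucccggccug
Mir32: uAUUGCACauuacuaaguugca
Mir92b: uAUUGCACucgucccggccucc

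Outside the seed this family was more varied. Mir25 and Mir363 differed at 13 of 22 bases, whereas Mir25 and Mir92-2 differed at 3 of 21 (C1U, U14C and U18C). The remaining members belong to the families of Mir18 and Mir19, which the Mir106b cluster lacks.
Mir18b: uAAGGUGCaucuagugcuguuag
Mir18: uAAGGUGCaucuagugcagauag
Mir19b-2: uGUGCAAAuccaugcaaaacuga
Mir19a: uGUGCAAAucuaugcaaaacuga

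Mir18b differed from Mir18 by U18A and U20A. The mature strand of Mir19b-2 is that of Mir19b-1 to the last base, and that of Mir92-2 is that of Mir92-1. The authors counted multiply placed reads separately and gave them to no gene, so strands shared between genes were looked for in a search of all 2201 miRNA genes of GENCODE release M21, both strands. The guide strand of each of the other 7 members was found in 1 gene only, and those of Mir19b-2 and Mir92-2 in 2 genes each. The runs that the paired hairpins share are shown in lower case, with 4 flanking bases in capitals on either side.
Mir92-1: UAUGguauugcacuugucccggccugUUGA
Mir92-2: UAAAguauugcacuugucccggccugAGGA
Mir19b-1: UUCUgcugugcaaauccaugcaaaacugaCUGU
Mir19b-2: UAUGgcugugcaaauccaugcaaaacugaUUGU

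The shared run was 22 bases in the Mir92 pair and 25 bases in the Mir19b pair. A read that ends inside such a run fits both hairpins. In both pairs the mature strand ends where the run ends. The counts of Mir19b-2, Mir92-2, Mir19b-1 and Mir92-1 therefore leave out reads that could not be placed, and are lower limits. So are the summed counts of the Mir17 cluster and of a family that holds them. Levels scaled by the total count are not strictly limits, because that total leaves out multiply placed reads too. The longest run that any of the other 7 members shared with another miRNA gene was 17 bases, between Mir18b and Mir18, and between Mir106a and Mir17 it was 13 bases. Whether the alignment allowed mismatches is not stated, and since the guide strands of Mir106a and Mir17 differ by 1 base, the counts of Mir106a may hold reads of the far more abundant Mir17. Mir20b differs by 2 bases from Mir17 and from Mir20a, and Mir18b by 2 from Mir18, so their counts may hold such reads too. The sum of the Mir106a cluster may thus be too high through Mir106a, Mir20b or Mir18b, or too low through Mir19b-2 and Mir92-2.

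Counts were made per hairpin, so both arms of a gene enter 1 value. The hairpins of the leading gene of each cluster are shown with both mature arms in capitals.
Mir93: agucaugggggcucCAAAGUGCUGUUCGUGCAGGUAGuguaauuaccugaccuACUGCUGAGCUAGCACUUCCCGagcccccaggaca
Mir106a: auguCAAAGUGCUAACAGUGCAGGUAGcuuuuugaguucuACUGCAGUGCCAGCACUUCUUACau

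All 3 genes of the Mir106b cluster lie on the minus strand of chromosome 5 (GRCm38), within 498 bases, at 138165737 to 138165818 for Mir106b (ENSMUSG00000065514.1), 138165523 to 138165610 for Mir93 (ENSMUSG00000065527.1) and 138165321 to 138165404 for Mir25 (ENSMUSG00000065394.1). All are in intron 13 of the Mcm7 transcript with 15 exons, and Mir93 and Mir25 also lie in exon 1 of a short Mcm7 transcript. The 6 genes of the other cluster lie on the minus strand of the X chromosome within 875 bases. Mir106a (ENSMUSG00000065456.1) comes first, from 52742503 to 52742567, and its first 5 bases overlap the last exon of Kis2. Then follow Mir18b (52742331 to 52742413), Mir20b (52742113 to 52742192), Mir19b-2 (52741983 to 52742066), Mir92-2 (52741838 to 52741928) and Mir363 (52741693 to 52741767), which release M21 places between genes. Gaps between hairpins were 118 to 126 bases in the Mir106b cluster and 46 to 138 bases in the Mir106a cluster.

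**Figure D1:**
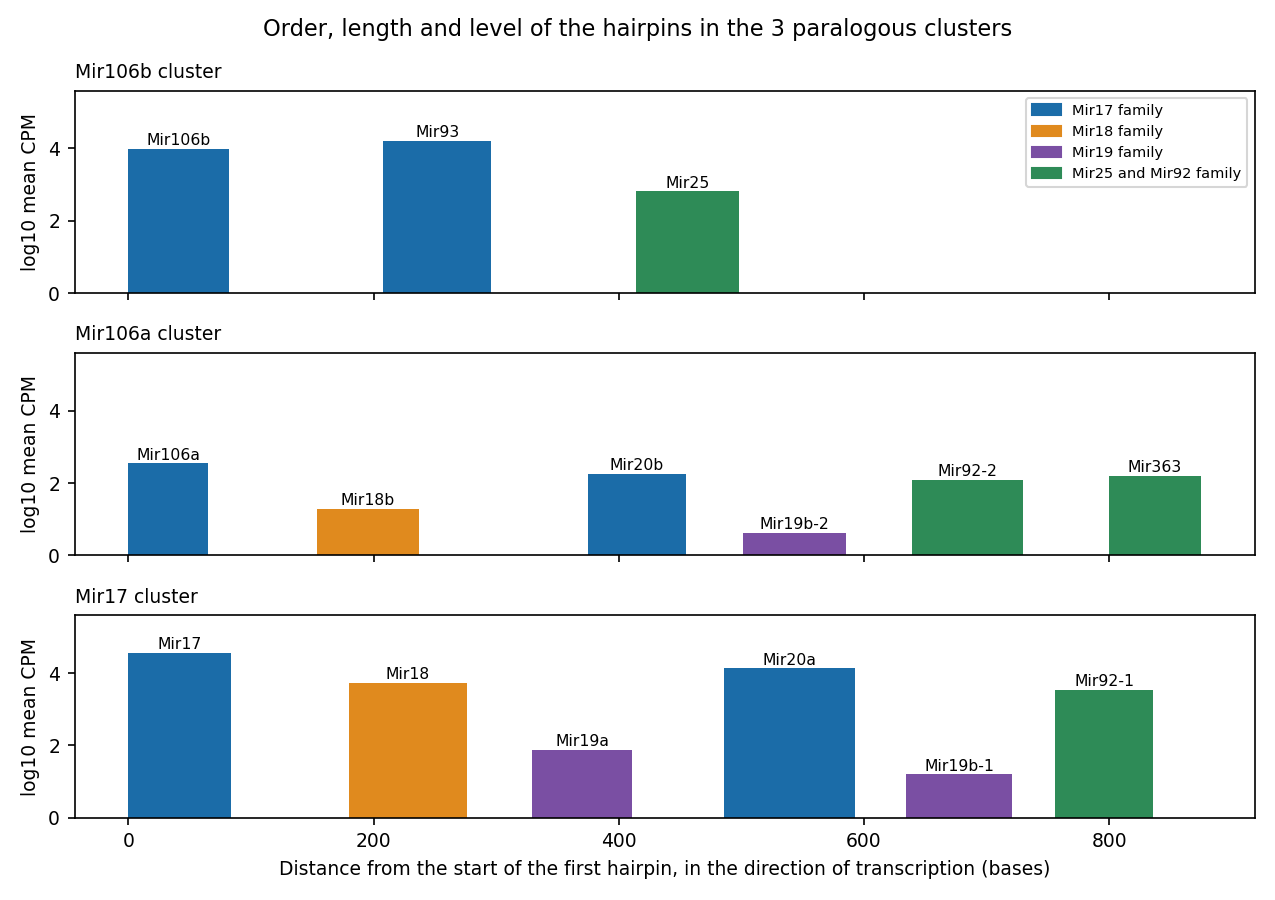
Hairpins of the 3 clusters by distance from the first hairpin (x axis, bases, in the direction of transcription), with bar width the hairpin length, bar height the log10 of the mean CPM of the 2 libraries (0 is 1 CPM) and colour the seed family. The bars of the Mir106a cluster are lower than those of the same family in the other clusters, with those of Mir19b-2, Mir19b-1, Mir92-2 and Mir92-1 drawn from counts without multiply placed reads.

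Levels are given as CPM, counts of a gene per 1000000 same-strand counts on miRNA genes, of which replicate 1 had 4562135 and replicate 2 had 5771249. A read is a whole short RNA and the guide strands are 21 to 23 bases long, so levels were compared between genes without scaling by hairpin length. Whether library preparation captured RNAs of different sequence equally well was not tested. Differences between genes are therefore differences in counts and may not equal those in abundance. In this bulk tissue, fewer cells that make a miRNA and less of it per cell cannot be told apart. Depth gave narrow counting intervals, and a count of 0 would allow 3 counts, or 0.658 CPM in replicate 1 and 0.520 CPM in replicate 2. Intervals are 95% and cover counting error only, not variation between libraries. Reads amplified by PCR are not independent molecules, so the intervals may be too narrow even for counting error. Markers of the tissue were present: the 6 genes of the cartilage and mesenchyme list summed to 49446 CPM in replicate 1 and 51442 CPM in replicate 2, and the 7 epithelial genes to 63539 and 63309 CPM.

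The Mir106b cluster was counted at a high level in the face, and its X-linked paralog at a level lower by more than an order of magnitude. The 3 genes of the Mir106b cluster together reached 23598 and 29392 CPM in replicates 1 and 2, a share of 2.65 ± 0.410% of counts (SD, n = 2). The 6 genes of the Mir106a cluster together reached 943 and 728 CPM, a share of 0.0835 ± 0.0152%. The ratio of the clusters was 25.0 in replicate 1 (95% exact interval 24.3 to 25.8) and 40.4 in the other library (39.2 to 41.7). Values of the clusters did not overlap, although 2 values against 2 are too few for a permutation test to pass any usual threshold. The Mir17 cluster stood at 57965 and 59629 CPM, above the Mir106b cluster by 2.46-fold (2.44 to 2.47) in replicate 1 and 2.03-fold (2.02 to 2.04) in replicate 2. Multiply placed reads are missing from these sums, and 2 of the 6 guide strands of the Mir106a cluster, against 0 of 3 in the Mir106b cluster, occur at another gene. The summed count of the Mir17 cluster is therefore a lower limit. Any Mir17 cluster reads counted at Mir106a, Mir20b or Mir18b would raise the sum of the Mir106a cluster, while the missing reads lower it. That sum, and the ratios of the Mir106b cluster to the Mir106a cluster, are therefore limits in neither direction.

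Within the Mcm7 intron, the genes of the Mir17 family carried nearly all counts. Mir93 led with 63043 counts in replicate 1, or 13819 CPM, and 106461 counts in replicate 2, or 18447 CPM. It ranked 20 and 16 among all genes and held 1.38% of counts (95% Wilson interval 1.37 to 1.39) in replicate 1. Mir106b had 42030 counts, or 9213 CPM, in replicate 1 and 58956 counts, or 10216 CPM, in replicate 2, at ranks 26 and 24. Mir93 exceeded Mir106b in both libraries, by 1.50-fold (1.48 to 1.52) and 1.81-fold (1.79 to 1.82), and Mir106b is the first hairpin of the cluster. Mir25, the cluster's member of the Mir25 and Mir92 family, was far lower, with 2585 counts (567 CPM) and 4213 counts (730.0 CPM). Mir93 exceeded it by 24.4-fold in replicate 1 and 25.3-fold in replicate 2. Shares of the cluster's counts were 60.7 ± 2.97% for Mir93, 36.9 ± 3.03% for Mir106b and 2.44 ± 0.0583% for Mir25. The share of Mir93 was larger in replicate 2 and that of Mir106b larger in replicate 1, while that of Mir25 was 2.40% and 2.48%, with overlapping intervals.

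In the X-linked cluster, Mir106a had the highest count in both libraries. It had 1898 counts (416 CPM) in replicate 1 and 1623 counts (281 CPM) in replicate 2, at ranks 124 and 135. Mir20b, the other Mir17 family gene there, had 878 counts (192 CPM) and 983 counts (170 CPM). Mir106a exceeded Mir20b by 2.16-fold (1.99 to 2.34) in replicate 1 and 1.65-fold (1.52 to 1.79) in replicate 2. Any Mir17 reads counted at Mir106a would make these folds too large, and Mir17 or Mir20a reads counted at Mir20b would make them too small. The lead of Mir106a is therefore as counted only. Mir363, of the Mir25 and Mir92 family and the last hairpin, had 804 counts (176 CPM) and 829 counts (144 CPM). The values of Mir20b and Mir363 overlapped, with 1.09-fold (0.991 to 1.20) between them in replicate 1 and 1.19-fold (1.08 to 1.30) in replicate 2. Mir92-2 stood at 134 and 108 CPM, from 612 and 626 counts, which are lower limits.

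The lowest counts belonged to members of the Mir18 and Mir19 families. Mir18b had 94 and 110 counts, or 20.6 and 19.1 CPM, and Mir106a exceeded it by 20.2-fold and 14.8-fold. Mir19b-2 had 16 and 28 counts, again lower limits, or 3.51 and 4.85 CPM. As counted, with the counts of Mir92-2 and Mir19b-2 as lower limits, the order of the 9 genes by mean level was Mir93, Mir106b, Mir25, Mir106a, Mir20b, Mir363, Mir92-2, Mir18b and Mir19b-2. Between neighbours in that order, the values of the 2 libraries overlapped only for Mir20b and Mir363. The median of the 360 genes with at least 10 counts in both libraries was 113 CPM, so 7 of the 9 members had a mean above it, and Mir18b and Mir19b-2 lay below.

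**Figure D2:**
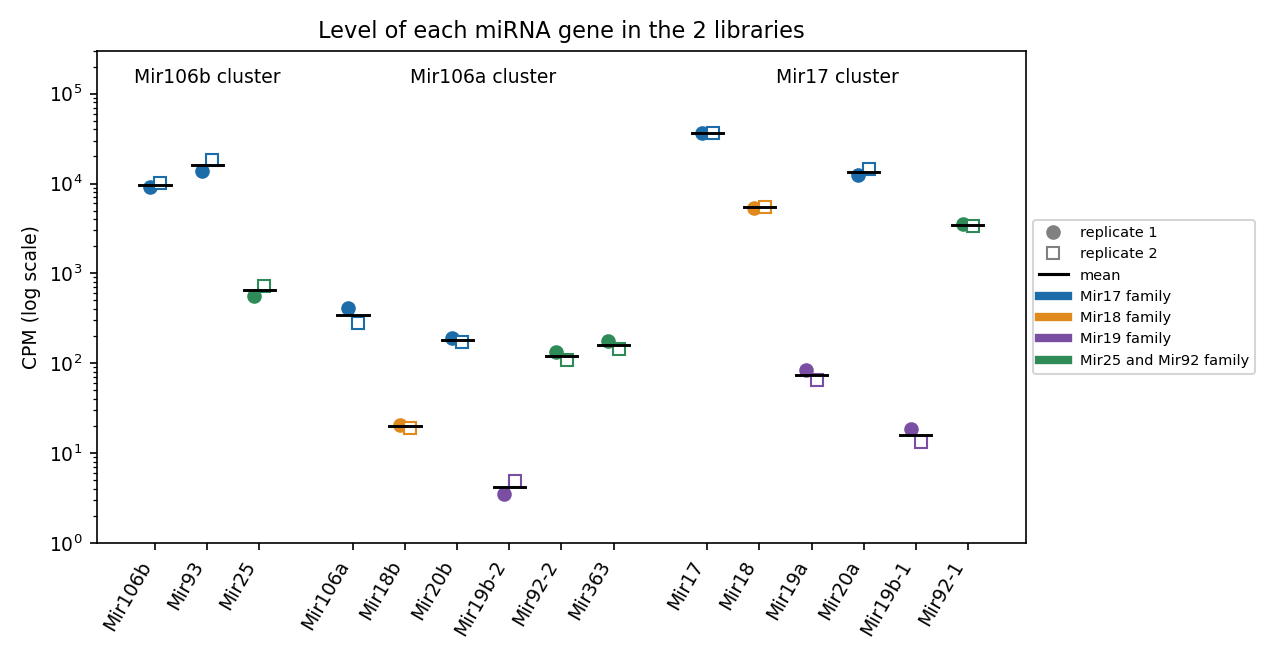
CPM of each gene (y axis, log scale) in replicate 1 (filled circles) and replicate 2 (open squares), with black bars for the mean and colours for the seed families. Genes follow their order along each cluster, and Mir93 and Mir106b stand between 9213 and 18447 CPM while the highest gene of the Mir106a cluster stands at 281 to 416 CPM.

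Set side by side, the X-linked and the Mir17 cluster each had the first hairpin highest as counted and the Mir20 gene next. The places of the Mir92 and Mir19b genes in both clusters are not settled, because their counts and shares lack the multiply placed reads. The places of Mir106a, Mir20b and Mir18b are not settled either, because their counts may hold reads of the Mir17 cluster. Mir106a held 41.4 ± 3.87% of its cluster's counts (SD, n = 2) and Mir17 held 61.9 ± 1.29% of its own. Mir20b and Mir20a held similar shares, 21.9 ± 2.12% and 22.8 ± 1.78%. Mir18b held 2.40 ± 0.307% where Mir18 held 9.22 ± 0.0568%, and Mir92-2 held 14.6 ± 0.483% where Mir92-1 held 5.86 ± 0.395%. Mir363, without a counterpart in the Mir17 cluster, held 19.2 ± 0.745%. The depth of the X-linked copy below its counterpart differed from pair to pair. Mir17 exceeded Mir106a by 87.5-fold (83.7 to 91.6) in replicate 1 and 129-fold (123 to 136) in replicate 2, and any Mir17 reads counted at Mir106a would make these folds too small. Between Mir20a and Mir20b it was 65.0-fold and 84.4-fold, and between Mir18 and Mir18b it was 260.4-fold and 287-fold. Reads of Mir17 or Mir20a counted at Mir20b, or of Mir18 at Mir18b, would likewise make these folds too small. The Mir92-1 count exceeded that of Mir92-2 by 26.5-fold and 30.7-fold, with the reads that fit both hairpins left out. For Mir19b-1 and Mir19b-2, both low, it was 5.31-fold (3.09 to 9.71) and 2.71-fold (1.74 to 4.35), with intervals that overlapped.

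Paired by family across the 2 clusters, the gene of the Mcm7 intron had the higher count in each pair compared and in both libraries. Mir93 exceeded Mir106a by 33.2-fold in replicate 1 and 65.6-fold in replicate 2, and Mir106b exceeded Mir106a by 22.1-fold and 36.3-fold. Within the family of Mir25 and Mir92 the gap was narrower for Mir363, which Mir25 exceeded by 3.22-fold and 5.08-fold. The count of Mir25 exceeded that of Mir92-2 by 4.22-fold and 6.73-fold, which are upper limits, so the direction of this pair is not established. Each of these ratios was larger in replicate 2. Against the Mir17 cluster, Mir25 stood below Mir92-1 by 6.28-fold and 4.56-fold, lower limits because Mir92-1 lacks multiply placed reads, and its guide strand differs from that of Mir92-1 at the same 3 bases as from Mir92-2.

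By seed family, the Mir106b cluster was a large source of the counts of Mir17 family hairpins and the Mir106a cluster a minor one. Counts hold both arms of a hairpin, and in these clusters the other annotated arm has another seed. Family sums and shares are therefore of hairpin counts, not only of strands with the family's seed. The family summed to 72576 and 79863 CPM. Mir93 and Mir106b gave 31.7% of it in replicate 1 (95% Wilson interval 31.6 to 31.9) and 35.9% in the other library (35.8 to 36.0), and Mir106a with Mir20b gave 0.838% (0.808 to 0.870) and 0.565% (0.544 to 0.587). The remainder came from Mir17 and Mir20a, since Mir6383, the last gene of the table with this seed, had 0 counts. The family of Mir25 and Mir92 was counted at 5041 and 5030 CPM. Its counts are a lower limit, since Mir92-1 and Mir92-2 lack the reads of their common strand. Mir25 gave 11.2% of these counts in replicate 1 and 14.5% in replicate 2, upper limits for the same reason, while Mir363 and Mir92-2 gave 6.16% and 5.01%. Mir92-1 gave 70.6% and 66.2%, and most of the remainder came from Mir92b (410 and 473 CPM) and Mir32 (193 and 246 CPM), with Mir367 at 0 counts. With the reads of the common strand left out of both its numerator and its denominator, the share of the Mir106a cluster in this family is not known.

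Most counts of the families of Mir18 and Mir19 came from the Mir17 cluster. Mir18b gave 0.383% (0.313 to 0.468) and 0.347% (0.288 to 0.418) of the Mir18 family, which summed to 5387 and 5491 CPM. The Mir19 family summed to 106 and 82.8 CPM, from counts that are a lower limit. Mir19b-2 gave 3.30% (2.04 to 5.29) and 5.86% (4.08 to 8.34) of its counts, with the intervals overlapping and the reads of the strand it has in common with Mir19b-1 left out. Mir19a, whose guide strand was found in 1 miRNA gene only, had 384 and 374 counts (84.2 and 64.8 CPM). Its guide strand differs from that of Mir19b-1 by U11C, and whether it lost multiply placed reads was not tested. Of the genes whose seed is that of Mir17 shifted by 1 base, Mir302a (219 and 220 CPM), Mir302d (212 and 178 CPM) and Mir302b (160 and 136 CPM) stood near the level of Mir20b. Mir294 had 35 and 28 counts, Mir295 had 0 and 7, and Mir291a had 1 and 0.

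**Figure D3:**
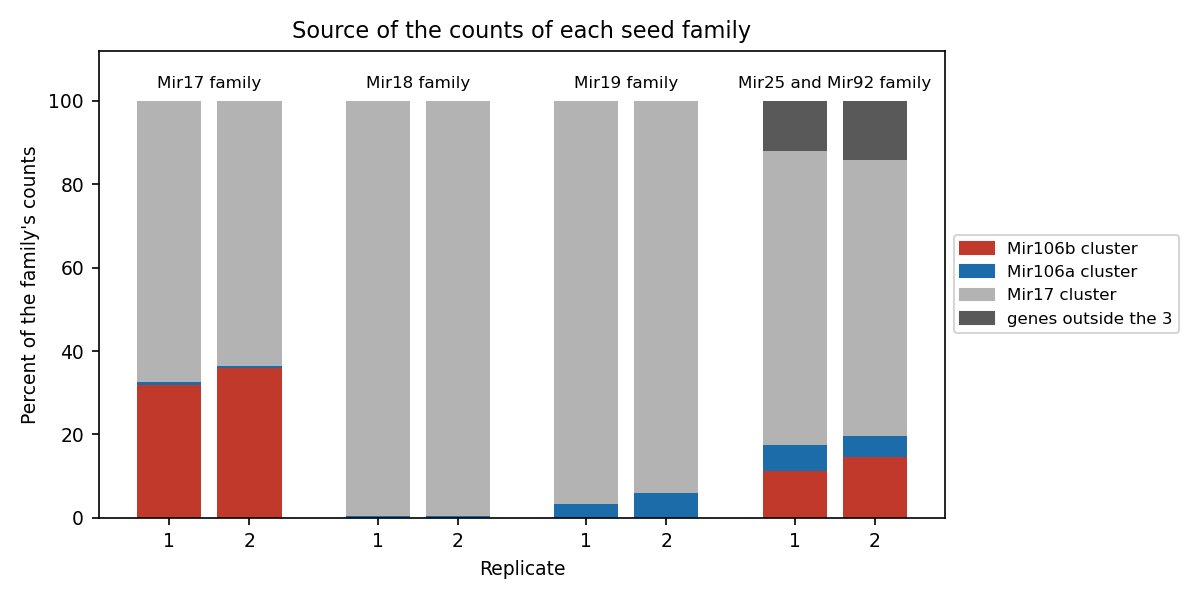
Percent of each seed family's counts (y axis) from the Mir106b cluster, the Mir106a cluster, the Mir17 cluster and genes outside these 3, in replicates 1 and 2 (x axis). Counts hold both arms of each hairpin. The Mir106b cluster gives 31.7% and 35.9% of the Mir17 family, and the Mir106a cluster is visible mainly in the Mir19 family, at 3.30% and 5.86%, and the Mir25 and Mir92 family, at 6.16% and 5.01%.

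The libraries differed in opposite directions in the 2 clusters. Across all 360 tested genes, 55.0% were called different between the libraries by an exact binomial test with TMM scaling from edgeR (Benjamini-Hochberg adjusted p under 0.05), 27.8% higher in replicate 2 and 27.2% higher in replicate 1. All 3 genes of the Mir106b cluster were called higher in replicate 2, and 4 of the 6 genes of the Mir106a cluster were called higher in replicate 1, with the other two not called. Calls in all were 7 of 9 members. Median log2 ratios of replicate 2 to replicate 1 were 0.36 in the Mir106b cluster, -0.24 in the Mir106a cluster, -0.05 in the Mir17 cluster and -0.01 over all tested genes. The test covers counting error only and compares these 2 libraries.

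Mir93 was 1.33-fold higher in replicate 2, a log2 ratio of 0.42, with an adjusted p too small to be represented as a number. Mir25 differed by nearly as much, at a log2 ratio of 0.36 (adjusted p = 1.04e-23, exact binomial test). Mir106b differed less, at 0.15 (adjusted p = 8.41e-58, exact binomial test). In the opposite direction, Mir106a had a log2 ratio of -0.57 (adjusted p = 2.27e-30, exact binomial test), a difference larger than that of 82.8% of tested genes. Mir92-2 and Mir363, at -0.31 and -0.30, were nearly alike (adjusted p = 0.000505 and 0.000107, exact binomial test). Mir20b was at -0.18 (adjusted p = 0.0184, exact binomial test), a call lost when genes with fewer counts were also tested. Mir18b, at -0.11, and Mir19b-2, at 0.47, were not called (adjusted p = 0.650 and 0.454, exact binomial test), at 94 to 110 and 16 to 28 counts. As a result the ratio of the clusters differed 1.61-fold between the libraries, with exact intervals that did not overlap.

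Genes of the same families did not all follow the clusters. Mir17 was not called, at 36420 and 36375 CPM (adjusted p = 0.698, exact binomial test), while Mir20a was higher in replicate 2 at a log2 ratio of 0.20. Mir19a (-0.38) and Mir92-1 (-0.10) were called higher in replicate 1, Mir18 (0.03) was called higher in replicate 2, and Mir19b-1 (-0.50) was not called. In the wider Mir25 and Mir92 family, Mir32 (0.34) and Mir92b (0.21) were called higher in replicate 2, like Mir25. Of the other 34 tested genes of the X chromosome, 8 were called higher in replicate 2 and 6 higher in replicate 1, with a median log2 ratio of 0.03, a count made after the members' values were seen. Marker lists of other cell types also differed between the libraries: striated muscle (3 genes) summed to 622 and 385 CPM, red blood cells (3 genes) to 101 and 160.1 CPM, and liver (2 genes) to 134 and 205 CPM. Most of the striated muscle sum was Mir206 (570 and 314 CPM). In the red blood cell list Mir144 and Mir451a were higher in replicate 2, while Mir486 was slightly lower (10.3 and 9.01 CPM) and not called. White blood cell genes (486 and 502 CPM from 2 of 3 genes with a place in the files), neural genes (324 and 309 CPM from 6 of 7, with Mir124a-1, Mir124a-3 and Mir9-2 at 0) and the endothelial gene Mir126a (25810 and 23871 CPM) differed less. Nearly all of the neural sum was Mir137 (315 and 304 CPM). Whether the neural genes at 0 lost multiply placed reads was not tested, so their counts of 0 do not show absence. The part of these cell types in the differences between the clusters was not tested.

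**Figure D4:**
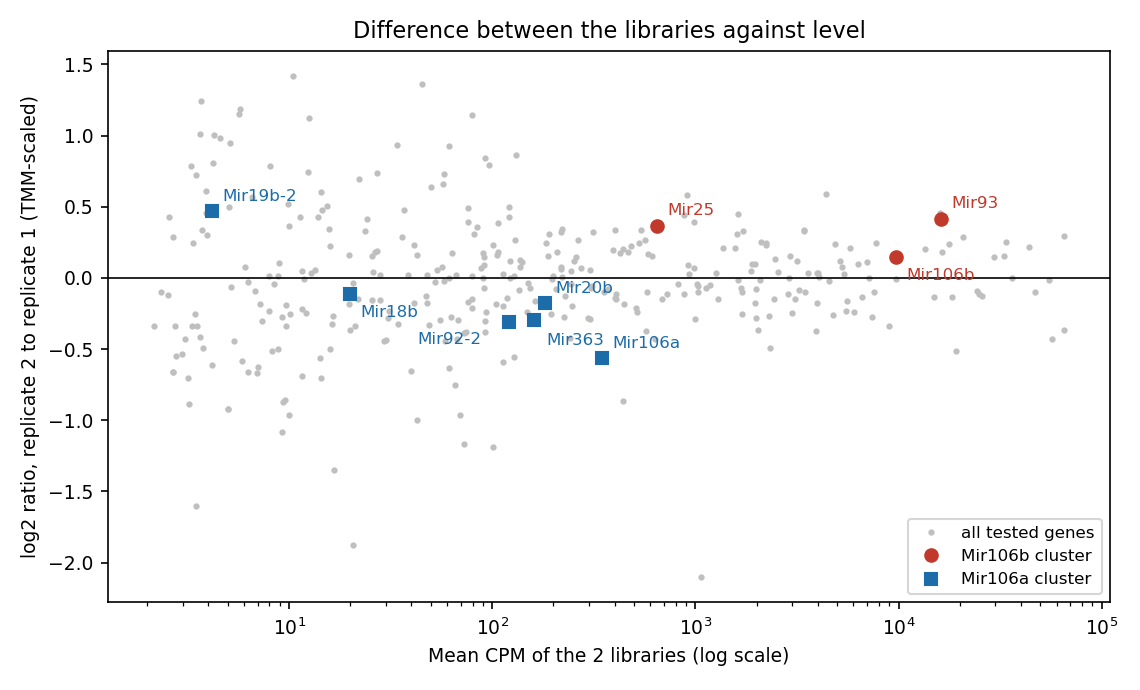
Log2 ratio of replicate 2 to replicate 1 after TMM scaling (y axis) against the mean CPM (x axis, log scale) for the 360 tested genes (grey), the Mir106b cluster (red circles) and the Mir106a cluster (blue squares). The 3 genes of the Mir106b cluster lie above 0 and, apart from Mir19b-2 with 16 and 28 counts, the genes of the Mir106a cluster lie below it.

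Likeness to other genes was measured as the distance in log2 CPM over the 2 libraries, which takes in both the level and the difference between them. Nearest to Mir93 were Mir429 of the epithelial Mir200 family (13418 and 18412 CPM, distance 0.04), Mir30e (0.18) and Mir143, a miRNA of smooth muscle (0.25). Nearest to Mir106a were Mir323 (332 and 272 CPM, distance 0.33), Mir543 (0.33) and Mir31 (0.37), so no gene matched Mir106a as closely as Mir429 matched Mir93. With 2 libraries of 1 group this is a description of levels only. On the opposite strand, 8 of the 9 members had 0 counts in both libraries, and Mir20b had 3 counts in replicate 2 and 0 in replicate 1.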

How the data were processed

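The deposited files give raw read counts per miRNA gene, made by the authors on mm10. The deposited description files name release M4 of GENCODE as their annotation. The 3 count columns hold reads on either strand, on the gene's strand and on the opposite strand. This reading rests on the values, as the files have no header. The sources used here do not name the aligner or its trimming and mismatch settings. Of all reads, 44.1% in each library were same-strand counts on genes, and unmapped (20.6% and 20.9%), multiply placed and no-feature lines stayed out of totals. The same-strand column was used. Names and positions came from GENCODE release M21 (GRCm38), which matched 1894 of 1973 identifiers.

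Errors are the SD over 2 libraries, shares have Wilson intervals and ratios exact (Clopper-Pearson) intervals. Genes with at least 10 counts in both libraries were tested between libraries with an exact binomial test (two-sided) on each gene's summed counts, with TMM factors (edgeR 4.0.16, R 4.3.3) and Benjamini-Hochberg adjustment over all tested genes. The test was tried on simulated counts that held only counting error and set fold differences between the libraries. It assumes such error, so this trial does not show how it behaves with further variation between libraries. The genes named are the 9 members, genes with a member's seed (bases 2 to 8), a list with a shifted seed, and the 3 genes nearest in level (pseudocount 0.5) to each cluster's highest gene. Members and lists were chosen with earlier results of these data known. Alternatives were the unstranded column, other scalings (DESeq2 1.42.0 among them), count minimums, a pseudocount of 5, and leaving out each library.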

Additional observations from a re-analysis of the deposited data

Results flagged for a closer look

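Reads with several places in the genome, which have no gene in the files and enter no value here, made up 30.7% of all reads in replicate 1 and 31.0% in replicate 2. They bear on Mir19b-2, Mir92-2, Mir19b-1 and Mir92-1, whose guide strands occur at 2 genes each, and so on the sums of the Mir106a and Mir17 clusters, on those of the families of Mir19 and of Mir25 with Mir92, and on each share taken of these sums. How many of them came from these hairpins is not known. The search for shared strands covered exact matches to annotated miRNA genes only. Whether the other members lost reads to other places in the genome was not tested.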

How the results depend on the processing

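Of 200 alternative values for 32 results, 177 kept their direction, their call and their size within the spread of the libraries. Part of this count was fixed in advance and is no sign of stability. With 2 libraries, leaving out 1 always moves a mean by less than the SD. Rescaling cannot change ratios and shares taken within a library. With all reads of a file as the denominator, levels fell with the larger total to 4283 CPM for Mir106b, 7113 for Mir93, 286 for Mir25, 154 for Mir106a, 8.74 for Mir18b, 80.0 for Mir20b, 1.84 for Mir19b-2, 53.5 for Mir92-2 and 70.5 for Mir363. The Mir106b cluster then summed to 11681 CPM and the Mir106a cluster to 368 CPM, and the families of Mir17, Mir25 with Mir92, Mir18 and Mir19 to 33602, 2219.9, 2398 and 41.7 CPM. Without the most abundant gene in the total, Mir18b rose to 21.2 CPM and the families of Mir17, Mir25 with Mir92 and Mir18 to 81538, 5389 and 5820.2 CPM. The unstranded column gave 4899.9 CPM for the family of Mir25 with Mir92 and 5292 CPM for that of Mir18. A change of denominator moves all genes of a library by 1 factor, so ratios between genes within a library keep their values. The log2 ratio of Mir20b was -0.15 and not called with a count minimum of 1 (adjusted p = 0.0619, exact binomial test) or with no minimum (adjusted p = 0.0709), and its adjusted p over all alternatives ran from 0.0184 to 0.0709 (exact binomial test). All 3 genes of the Mir106b cluster were called higher in replicate 2 under each of the 6 alternatives of the test. Leaving out a library gave cluster ratios of 25.0 and 40.4, and the test between libraries could not be run without either. No paired analysis was possible because there is 1 group. With a minimum of 100 counts Mir18b and Mir19b-2 were not tested. Neither had more than 110 counts in a library, which limits the differences that could be seen in them.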
